A study of Mus musculus with 10 samples.

Results

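The chaperonin CCT, also called TRiC, is a cytosolic folding machine built from 8 related subunits, and the transcripts of all 8 (Tcp1, Cct2, Cct3, Cct4, Cct5, Cct6a, Cct7 and Cct8) were followed here, 8 genes of the 27151 in the deposited table. They were found by matching the table's Ensembl identifiers to mouse symbols. The members were selected on their normalised reads in SP2509 and vehicle tongue, which were already known, so their levels, fold changes and mutual proportions in this contrast are given as a description, with no test. The libraries are bulk RNA-seq of tongue from C57BL/6J mice exposed to 4NQO, a chemical that forms DNA adducts and induces lesions of the oral epithelium. All 10 libraries share that exposure. Vehicle was given in 4 of them and SP2509, an inhibitor of the histone demethylase LSD1, in 6, and the series title asks about anti-tumour immunity under LSD1 inhibition. The titles of these 6 read SP2509h, where the h is not explained. The labels give neither dose, duration and age nor whether lesion or whole tongue was taken, and do not tie the libraries to individual mice, although the series text counts 4 vehicle and 6 SP2509 mice.

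Each CCT ring holds 1 copy of every subunit, and rings stack back to back around a cavity in which a substrate protein folds. ATP binding and hydrolysis by the subunits closes a built-in lid over that cavity. Actin and tubulin are its best known obligate clients, next to proteins with WD40 repeats such as the G protein beta subunits. Structural work places the subunits around the ring in the order Tcp1, Cct4, Cct2, Cct5, Cct7, Cct8, Cct6a and Cct3, and the side formed by Tcp1, Cct4, Cct2 and Cct5 binds and uses ATP more readily than the opposite side. Because the complex needs equal numbers of subunits, the proportions of the transcripts were followed as well as their amounts.

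The genes are scattered over 8 chromosomes (GRCm38): Tcp1 on chromosome 17 (12915701 to 12925067), Cct2 on 10 (117051001 to 117063814), Cct3 on 3 (88297116 to 88321767), Cct4 on 11 (22990519 to 23003780), Cct5 on 15 (31590800 to 31601804), Cct6a on 5 (129786998 to 129846371), Cct7 on 6 (85451514 to 85468475) and Cct8 on 16 (87483326 to 87495873). Promoter windows of 7 of them were in the RefSeq table on GRCm38.p6, Cct4 being the member without one. The windows of the pair with the largest fold changes below (Tcp1 and Cct5) and of the pair with the smallest (Cct8 and Cct6a) are printed, since these genes share a complex but no chromosome. Each covers the 250 bases before the RefSeq start, 5′ to 3′ on the gene's strand, with every motif match in capitals. The gene spans above are from GENCODE, whose starts differ, and the windows of Tcp1 and Cct6a lie wholly inside those spans. The windows are chr17:12916079-12916328 on the plus strand for Tcp1, chr15:31601847-31602096 on the minus strand for Cct5, chr16:87495870-87496119 on the minus strand for Cct8 and chr5:129787106-129787355 on the plus strand for Cct6a.
Tcp1: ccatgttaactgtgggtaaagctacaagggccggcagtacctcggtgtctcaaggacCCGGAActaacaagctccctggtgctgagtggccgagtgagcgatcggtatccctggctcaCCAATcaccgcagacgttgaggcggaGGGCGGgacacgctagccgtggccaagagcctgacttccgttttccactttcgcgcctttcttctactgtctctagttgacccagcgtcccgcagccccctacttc
Cct5: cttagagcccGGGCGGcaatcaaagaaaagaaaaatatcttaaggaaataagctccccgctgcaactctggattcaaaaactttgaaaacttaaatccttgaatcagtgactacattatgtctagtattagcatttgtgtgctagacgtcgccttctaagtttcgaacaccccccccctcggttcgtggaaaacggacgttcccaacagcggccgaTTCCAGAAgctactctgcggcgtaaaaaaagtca
Cct8: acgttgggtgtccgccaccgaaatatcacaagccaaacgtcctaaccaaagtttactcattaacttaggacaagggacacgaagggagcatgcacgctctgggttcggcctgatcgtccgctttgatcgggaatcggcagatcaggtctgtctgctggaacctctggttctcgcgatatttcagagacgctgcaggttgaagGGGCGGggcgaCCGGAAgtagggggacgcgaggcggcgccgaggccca
Cct6a: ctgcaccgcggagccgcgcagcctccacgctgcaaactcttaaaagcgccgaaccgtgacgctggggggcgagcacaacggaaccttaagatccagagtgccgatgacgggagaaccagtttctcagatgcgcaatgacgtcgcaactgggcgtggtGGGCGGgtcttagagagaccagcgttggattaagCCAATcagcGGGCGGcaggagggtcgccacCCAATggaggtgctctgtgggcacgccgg

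The motifs searched, on both strands, were the heat shock element in the forms GAANNTTC and TTCNNGAA, the E-box CACGTG, the CCAAT box, the GC box GGGCGG, the ETS core CCGGAA and the TATA box TATAAA. All 7 windows held a GC box, which 32.7% of the 32851 mouse promoter windows of this length hold. CCAAT, in either orientation, was in 4 of 7 (Tcp1, Cct3, Cct6a and Cct7, the last with 3 copies), against 33.8% of all windows. The ETS core was in 4 of 7 (Tcp1, Cct2, Cct7 and Cct8), and in 3952 of all 32851 windows. Only Cct5 held a heat shock element, TTCCAGAA at 34 to 27 bases before the start, against 12.8% of all windows, and none held CACGTG (6.02% of all) or TATAAA (12.4%). Among the printed windows, CCAAT was therefore in Tcp1 and Cct6a, genes at opposite ends of the fold changes, and absent from Cct5 and Cct8. These matches describe letters in a window and not binding.

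CCT transcripts were abundant in every library. Whole reads recovered from the normalised values, summed over the 8 genes, ran from 5564 in vehicle replicate 1 to 20501 in SP2509 replicate 1, and the thinnest single measurement was 497 reads (Tcp1 in vehicle replicate 1). Per kilobase of annotated exon the members stood between the 87.1 percentile (Cct3) and the 96.0 percentile (Cct2) of the 17076 tested genes with a length. Counting error was 1.83% to 3.83% of a gene's mean. The coefficient of variation between libraries of a group was 4.49% (Cct7 in SP2509) to 18.7% (Cct6a in SP2509). It exceeded the counting error of every gene in each group, by the least for Tcp1 in vehicle (5.51% against 3.83%).

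Some features of the libraries touch every value below. SP2509 replicates 1 and 2 differed by an SD of 0.11 on the log2 scale over 641 highly counted genes, and replicates 4 and 5 by 0.10, against 0.19 to 0.76 in the other pairs of one group. Each of these pairs exceeded counting noise (3.13 and 2.87 times the Poisson expectation), but they were averaged, so that SP2509 means and SDs are over 4 units. Mitochondrial genes took 35.3% to 52.1% of reads in vehicle and 24.0% to 32.2% in SP2509. Replicates 4 and 5 held 299084 and 310186 normalised reads of the gland marker list, which is mostly Muc5b, against 1095 or less elsewhere, with the gland gene Dcpp1 at 0 in all 4 vehicle libraries. Markers of keratinocytes and muscle, as tongue should have, were present in all 10. Kdm1a, which encodes LSD1, ranged over 659 to 823 normalised reads among vehicle libraries, 641 to 848 among SP2509 libraries.

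Transcripts of the whole complex were higher in the SP2509 libraries. Summed over the 8 genes, normalised reads averaged 10374 ± 640 with vehicle (SD, n = 4) and 14576 ± 1181 with SP2509 (SD, n = 4 units), a ratio of 1.41. All 8 fold changes were positive, from 0.29 for Cct8 to 0.72 for Tcp1 on the log2 scale, with a median of 0.55 beside 0.02 over all 17088 genes tested. Every SP2509 library lay above every vehicle library for 7 of the 8, all but Cct6a; 6.54% of tested genes separate that way. These values rest on the deposited scaling. As a percentage of reads outside mitochondrial genes, the 8 genes held 0.105% to 0.126% in vehicle and 0.120% to 0.166% in SP2509. On that measure the ratio was 1.26 and the groups overlapped. In bulk tissue, more cells rich in CCT and more CCT transcript per cell cannot be told apart.

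**Figure D1:**
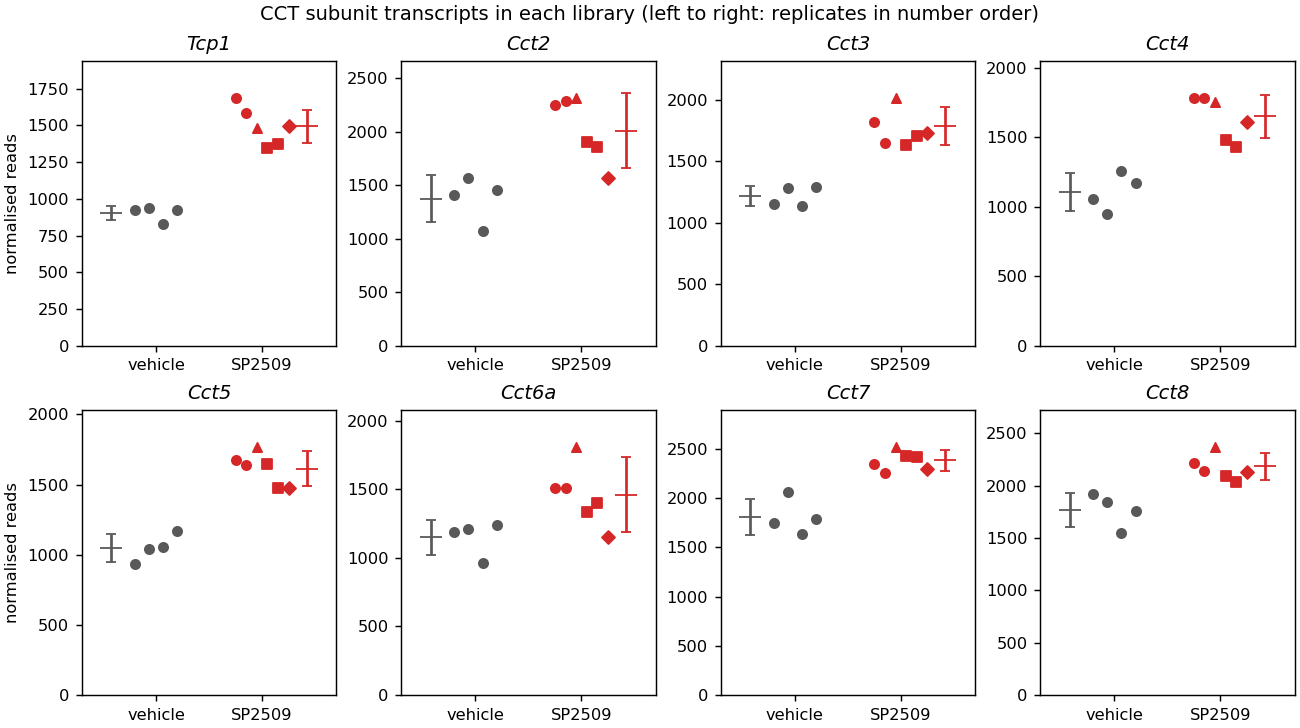
Normalised reads of each subunit in each library, vehicle in grey and SP2509 in red, with the group mean and SD beside the points (n = 4 vehicle libraries and n = 4 SP2509 units). Circles in SP2509 are replicates 1 and 2, the triangle 3, squares 4 and 5 and the diamond 6; only for Cct6a do the groups overlap.

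The side that uses ATP more readily comprises Tcp1, Cct4, Cct2 and Cct5. Tcp1, the founding member of the family, had 922, 935, 829 and 928 normalised reads in vehicle replicates 1 to 4, and from 1347 up to 1686 with SP2509 (median 1489). That is a mean of 903 ± 49.8 (SD, n = 4) against 1493 ± 113 (SD, n = 4 units). Its log2 fold change of 0.72 (SE 0.10) was the largest of the 8, with 3 of the vehicle libraries close together. Cct4 had 1055, 947, 1260 and 1169 in vehicle and 1429 to 1781 (median 1682) in SP2509, a log2 fold change of 0.57 (SE 0.12). Its highest vehicle library was replicate 3, where 6 of the other 7 subunits were at their lowest among vehicle libraries.

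Cct2 had 1404, 1569, 1068 and 1457 in vehicle and 1570 to 2311 (median 2075) in SP2509, a log2 fold change of 0.56 (SE 0.15). Its groups met at the edge, with 1569 in vehicle replicate 2 and 1570 in SP2509 replicate 6. Cct5, a subunit that can form a ring on its own in vitro, had 931, 1040, 1053 and 1172 in vehicle and 1473 to 1766 (median 1645) in SP2509, a log2 fold change of 0.62 (SE 0.10).

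On the opposite side the differences were smaller. Cct3 had 1153, 1279, 1136 and 1290 in vehicle and 1634 to 2012 (median 1719.6) in SP2509, a log2 fold change of 0.53 (SE 0.10). Cct7 had 1743, 2062, 1634 and 1789 in vehicle and 2252 to 2516 (median 2382) in SP2509, a log2 fold change of 0.40 (SE 0.10), and its SP2509 units had the smallest relative spread of any member. Cct8 had 1923, 1846, 1547 and 1757 in vehicle and 2036 to 2365 (median 2134) in SP2509, a log2 fold change of 0.29 (SE 0.10). Its groups stayed apart, with the highest vehicle library at 1923 and the lowest SP2509 library at 2036.

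Cct6a, the widely expressed form of the zeta subunit, had 1187, 1210, 963 and 1238 in vehicle and 1155 to 1806 (median 1454) in SP2509, a log2 fold change of 0.33 (SE 0.13). SP2509 replicate 6, at 1155, lay below 3 of the 4 vehicle libraries, while the other 5 SP2509 libraries lay above all of them. Its partner form Cct6b, known from testis, was near absent, with 13 reads over all vehicle libraries and 60 over all SP2509 libraries, and Cct8l1, another paralog, had 4 and 41 reads. Both were under the filter on low values.

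In the order around the ring, the log2 fold changes were 0.72, 0.57, 0.56 and 0.62 for Tcp1, Cct4, Cct2 and Cct5, then 0.40, 0.29, 0.33 and 0.53 for Cct7, Cct8, Cct6a and Cct3. Every value of the first side was above every value of the second, although Cct3 (0.53) and Cct2 (0.56) differ by less than 1 SE. This grouping was noticed after the values were seen. It held in 18 of 23 settings of the processing, and in the other 5 (close libraries averaged or summed, or without vehicle replicate 2, vehicle replicate 3 or SP2509 replicate 2) Cct3 exceeded the lowest member of the first side. With the close libraries averaged, for instance, the highest value of the second side was 0.56 and the lowest of the first 0.54. The count of settings includes the reported fit and several that could not change the order. Other filters leave these fold changes as they are, and rescaled libraries shift all genes nearly alike.

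**Figure D2:**
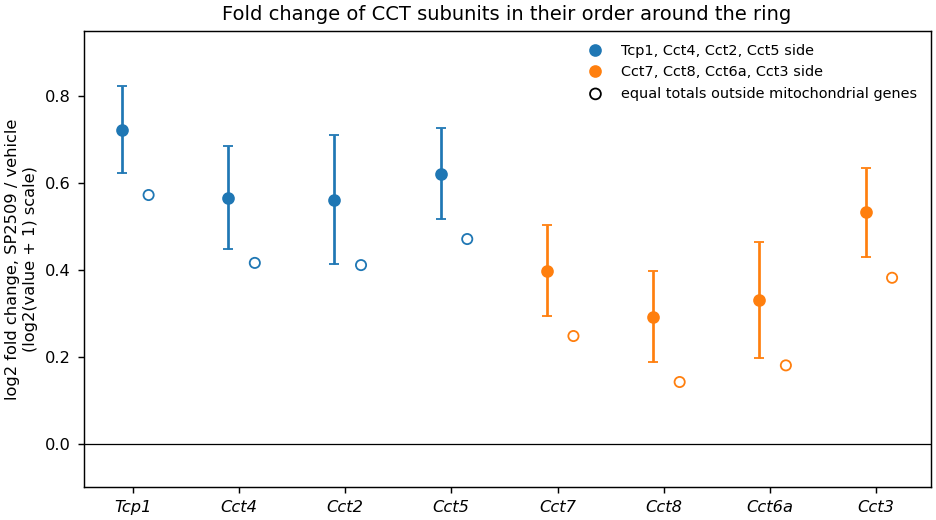
Log2 fold change (SP2509 over vehicle, log2(value + 1) scale) of each subunit in its order around the ring, with SE bars from limma over 10 libraries; open circles rescale the libraries to equal totals outside mitochondrial genes. The 4 subunits at the left lie between 0.56 and 0.72 and the 4 at the right between 0.29 and 0.53. The open circles have the same profile lower down, because 1 factor per library shifts all genes nearly alike.

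In the fit across all genes (limma, Benjamini-Hochberg adjusted p under 0.05), 6 of the 8 members were called higher (all but Cct6a and Cct8), beside 4.95% of all tested genes; the members were taken from this contrast, so nothing is read from that count. It was 2 (Tcp1 and Cct5) without vehicle replicate 1, where 1% of all genes were called higher, and 8 without SP2509 replicate 6, where 11.5% were, while the median fold change stayed between 0.47 and 0.58 over the 10 fits that leave out 1 library. With the close libraries averaged, limma called no gene of the table in either direction (1980 were higher and 1652 lower at an unadjusted p under 0.05), and the members' median was 0.55. Rescaling to equal totals outside mitochondrial genes moved the median of all tested genes from 0.02 to -0.13 and that of the members to 0.40, with 2 called (Tcp1 and Cct5) beside 1.74% of all genes. Relative to the median of all genes the members stood 0.53 higher before and 0.52 higher after that rescaling. With 1 factor per library the rescaling shifts all genes nearly alike, so this gap could hardly change and nothing is read from it.

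The proportions of the subunits were compared as each gene's percentage of the summed reads per kilobase in the same library, which cancels the scaling between libraries. Lengths of the longest coding transcript were used for the values in this paragraph (for Cct6a, its longest transcript without a retained intron), because the union of all annotated exons is inflated by retained introns, to 6370 bases for Cct3 against 1977. The dashed line in the plot of shares marks what equal subunits would hold. In vehicle Cct7 held 15.9% ± 0.961, and Cct8 15.9% ± 1.07 (SD, n = 4), while Tcp1 held the least, 7.96% ± 0.170. The largest share was 2.07 ± 0.123 times the smallest in vehicle and 1.91 ± 0.0868 times in SP2509.

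Tcp1 and Cct8, the members with the largest and smallest fold changes, were those whose shares separated the groups. Shares follow from the same values as the fold changes, and the Cct8 reads themselves were higher with SP2509. The Tcp1 share was 7.82% to 8.18% in vehicle and 8.38% to 10.1% in SP2509, with every SP2509 library higher. The Cct8 share was 15.1% to 17.4% in vehicle and 13.4% to 14.7% in SP2509, with every SP2509 library lower. The shares of the other 6 overlapped between groups. Cct5 went from 12.2% ± 1.20 to 13.3% ± 0.196, and Cct6a from 10.1% ± 0.570 to 9.02% ± 0.979. Summed over Tcp1, Cct2, Cct4 and Cct5 the share was 43.5% to 46.2% in vehicle and 46.8% to 51.1% in SP2509. That difference was 3.44 percentage points with coding lengths, 3.85 with the union of exons and 3.59 with no division by length. The grouping of these genes was noticed after their fold changes were seen, so a larger summed share follows from it and nothing is read from the difference.

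**Figure D3:**
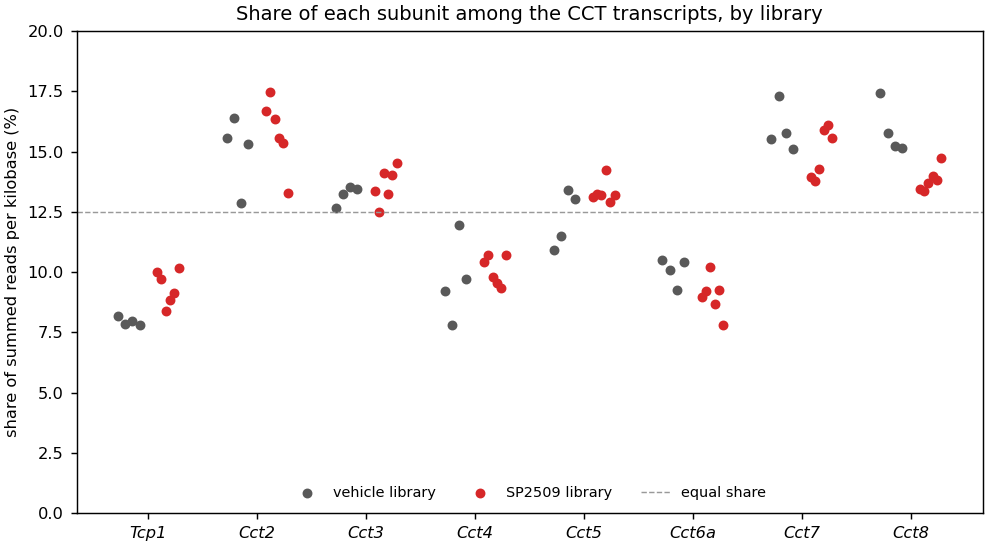
Percentage of the summed CCT reads per kilobase (longest coding transcript) held by each subunit, vehicle libraries in grey and SP2509 libraries in red, with the dashed line at an equal share. All 6 SP2509 libraries lie above vehicle for Tcp1 and below it for Cct8.

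As levels per kilobase of coding transcript, the vehicle order was Cct7 (740 ± 74.6 normalised reads per kilobase), Cct8 (739 ± 67.8), Cct2 (702 ± 110.0), Cct3 (614 ± 41.1), Cct5 (566 ± 53.2), Cct6a (468 ± 51.4), Cct4 (446 ± 54.7) and Tcp1 (369 ± 20.4). No neighbours in that order had separate ranges over the 4 libraries. In SP2509 Cct2 led at 1024 ± 179, ahead of Cct7 at 976 ± 43.9 in 3 of 6 libraries, and Cct6a was last at 595 ± 111, below Tcp1 at 610 ± 46.2 in 4 of 6. There only Cct5 (871 ± 67.6) and Cct4 (664 ± 60.9) were neighbours with separate ranges. The order depends on the length used: with the union of exons Cct8 led in vehicle at 573 and Cct7 came below Cct2, Cct5 and Cct6a at 267, with Tcp1 still last at 179.6.

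Within the groups the subunits also varied together, unevenly. After each group's mean was removed, 26 of 28 pairs had a positive Pearson r over the 10 libraries, with a median of 0.51. Cct2 and Cct6a were the closest pair (r = 0.91) and Cct4 and Cct7 the most opposed (r = -0.64). Among the positive values the lowest was 0.0002 (Cct2 and Cct4), and the share of positive pairs among other genes was not computed. The close SP2509 libraries enter as separate points, and all points share library and scaling, so these values describe the libraries only. In SP2509 the mean log2 value of the 8 subunits was 10.88, 10.84 and 10.95 in replicates 1 to 3 and 10.73, 10.71 and 10.69 in replicates 4 to 6. Basal keratinocyte markers summed to 149887, 147122 and 166985 normalised reads in replicates 1 to 3, to 98077 and 97285 in 4 and 5 and to 40303 in 6, against 57257 to 89422 in vehicle. Skeletal muscle markers summed to 668247 in replicate 6 and to 230061 to 311243 in the other SP2509 libraries, against 119661 to 275157 in vehicle. In SP2509 replicate 6 the 8 subunits summed to 13459 normalised reads, against 9491 to 10889 in vehicle. Of reads outside mitochondrial genes they held 0.120% in that library, inside the vehicle range of 0.105% to 0.126%. None of the 6 basal or 6 suprabasal keratinocyte markers, the 9 tested muscle markers, the 5 endothelial, 5 tested leukocyte, 4 adipocyte or 3 tested gland markers was called in either direction (limma, adjusted p under 0.05). Schwann cell markers had a median log2 fold change of -0.88 over 4 genes and sums of 7176 to 15096 in vehicle and 3533 to 8468 with SP2509. Of 6 fibroblast markers the collagen gene Col3a1 was called lower (-0.67, SE 0.19, limma adjusted p = 0.0427), with list sums of 9238 to 11628 and 10028 to 12242. The adipocyte markers had a median log2 fold change of 2.24, with overlapping sums of 3343 to 5936 and 4224 to 6218. The part of these cell types in the CCT difference was not tested.

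The genes whose log2 profile was most like the mean of the 8 subunits over 10 libraries, among 10812 searched, were Canx (r = 0.99), Hspa4 (0.98), Cpsf2 (0.98), Prep (0.98), Dnttip2 (0.98) and Tgfbr2 (0.97). Canx encodes the ER chaperone calnexin, Hspa4 an Hsp110 family nucleotide exchange factor and Cpsf2 a subunit of the mRNA cleavage machinery. Canx ran from 956 to 1121 normalised reads across vehicle libraries and from 1404 to 1717 across SP2509 libraries, without overlap. Of all tested genes 6.54% separate that way. A search by r over both groups favours genes that differ between them as the subunits do, so nothing is read from this separation. With group means removed, and the close libraries again as separate points, the most alike were Enah (r = 0.97), Bnc1 (0.96), Pgd (0.95), Wdr1 (0.95), Prdx1 (0.94) and Megf9 (0.94). Bnc1, a transcription factor gene of basal keratinocytes, was at 181, 180 and 209 in SP2509 replicates 1 to 3 and at 64.3 to 74.9 in replicates 4 to 6. Enah and Wdr1 encode actin regulators, and Enah itself had a log2 fold change of 0.10 (SE 0.18).

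Around the subunits 12 lists were followed: CCT paralogs, cochaperones and clients, other chaperones, factors tied to chaperone or growth control, and proliferation genes. Of their 100 tested members, 19 were higher and 1 lower (limma, adjusted p under 0.05), where 4.95% and 4.15% of all tested genes were, and the median of the 100 was 0.29. These counts depend on single libraries: 2 were higher without vehicle replicate 1 and 35 without SP2509 replicate 6. With the close libraries averaged limma called none of the 100 (33 higher and 4 lower at an unadjusted p under 0.05), the lowest adjusted p being 0.0718. Unless stated, the SEs and adjusted p-values of single genes below treat the close libraries as separate. A fit that leaves out 1 library of a close pair keeps the other. The lists were chosen with results of these data known, and their counts are a description.

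Of the 6 genes of prefoldin, which hands unfolded actin and tubulin to CCT, 1 was higher and 5 lay above 0, with a median of 0.26. Pfdn1 had 454, 544, 583 and 528 normalised reads in vehicle replicates 1 to 4, and 634 to 872 with SP2509, with no overlap (log2 fold change 0.45, SE 0.12, limma adjusted p = 0.0362). It kept its call in 2 of the 10 fits that leave out 1 library (highest adjusted p 0.112, without vehicle replicate 1). Vbp1, another prefoldin subunit gene, was at 330 ± 44.5 and 439 ± 25.2 (0.39, SE 0.12, adjusted p = 0.0604).

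The prefoldin-like and R2TP complexes assemble RNA polymerases and PIKK kinases with Hsp90, and 2 of their 7 genes were higher (median 0.16). Rpap3, the R2TP scaffold, went from 99.4 ± 11.0 to 173 ± 30.3 normalised reads (0.74, SE 0.16, adjusted p = 0.0208), losing its call only without vehicle replicate 1 among the fits that leave out 1 library (adjusted p = 0.061). Ruvbl1, an AAA+ ATPase gene, went from 219 ± 21.5 to 321 ± 49.7 (0.51, SE 0.13, adjusted p = 0.0357), kept in 2 of 10 such fits (highest adjusted p 0.0941, without vehicle replicate 1). Phosducin-like proteins bind CCT and help it release G beta and other clients. None of their 3 tested genes passed, Pdcl3 being closest (0.35, SE 0.12, adjusted p = 0.0836), followed by Txndc9 (0.23, SE 0.09, adjusted p = 0.13). Among 3 tested chaperonin-like genes of Bardet-Biedl syndrome none passed. Mkks had 66.8 to 117 in vehicle and 121 to 187 with SP2509 without passing (0.64, SE 0.20, adjusted p = 0.0587), while Bbs12 was at 0.0029 (SE 0.24, adjusted p = 0.996).

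Among client genes the fold changes were uneven. Actb, the cytoplasmic beta-actin gene, stood at 15518 ± 1032 in vehicle and 15489 ± 3089 in SP2509 (0.0013, SE 0.17, adjusted p = 0.997). None of the 6 actin genes passed, although the list's median was 0.64. That median lies between Acta2 (0.57, SE 0.27, adjusted p = 0.199) and Actg2 (0.71, SE 0.66, adjusted p = 0.511). The largest fold changes were those of the muscle forms Acta1 (1.24, SE 0.38, adjusted p = 0.0582) and Actc1 (0.94, SE 0.44, adjusted p = 0.183). Acta1 was highest, at 164632 normalised reads, in replicate 6, the library richest in muscle markers. Of 14 tubulin genes 4 were higher (Tubb6, Tubb2b, Tuba4a and Tubb4b, limma adjusted p of 0.0248, 0.0416, 0.0434 and 0.0476), with a median of 0.46. Tubb6 went from 335 ± 78.7 to 532 ± 77.7 (0.67, SE 0.15, adjusted p = 0.0248), kept in 4 of 10 fits that leave out 1 library (highest adjusted p 0.0834, without vehicle replicate 1), and the other three in 2 of 10. The 6 tubulin cofactors, which take over tubulin after CCT, had none past the threshold (median 0.17), Tbce lying lower (-0.38, SE 0.13, adjusted p = 0.0748) and Tbcc higher (0.37, SE 0.16, adjusted p = 0.15).

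Of 18 other clients 1 was higher and 1 lower, with a median of -0.01. Ppp2r2a, the WD40 regulatory subunit of PP2A, went from 454 ± 66.0 to 623 ± 55.6 (0.43, SE 0.12, adjusted p = 0.0412). Gnb4, a G beta gene, fell by 0.64 (SE 0.18, adjusted p = 0.0433), from 279 ± 21.6 to 194 ± 47.6, with SP2509 replicate 6 at 255 inside the vehicle range. Each kept its call in 1 of the 10 fits that leave out 1 library (highest adjusted p 0.0847 without vehicle replicate 2 for Ppp2r2a, 0.119 without vehicle replicate 1 for Gnb4).

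**Figure D4:**
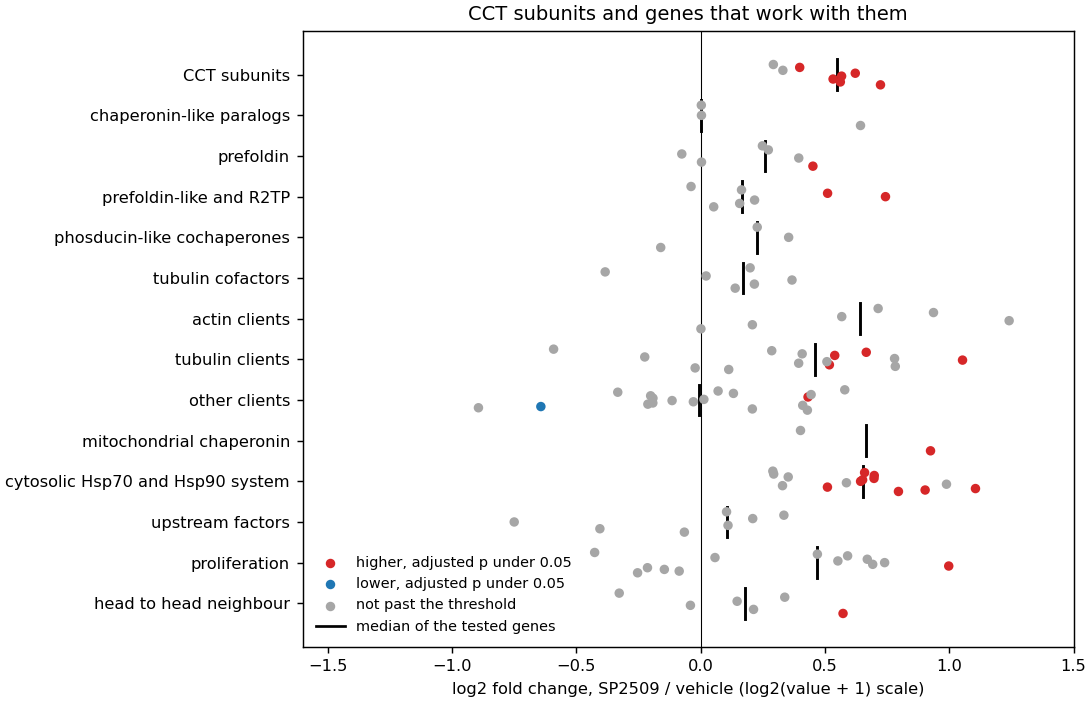
Log2 fold change (SP2509 over vehicle) of every tested gene of the CCT subunits, of the 12 lists around them and of genes that start head to head with a subunit gene, 1 point per gene, with the median as a bar. Red points were called higher and blue lower by limma over 10 libraries; the chaperonin and Hsp70 and Hsp90 lists lie to the right, the other clients around 0.

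Among other folding machines, Hspd1, the mitochondrial chaperonin Hsp60, had 860, 1324, 1060 and 1278 normalised reads in vehicle replicates 1 to 4, and 1802 to 2679 with SP2509 (0.92, SE 0.15, adjusted p = 0.0118), and kept its call in all 10 fits that leave out 1 library. With the close libraries averaged, the limma adjusted p of Hspd1 was 0.0718. Its lid Hspe1 was at 1022 ± 170 and 1359 ± 117 (0.40, SE 0.12, adjusted p = 0.0571). Of 15 genes of the cytosolic Hsp70 and Hsp90 system 9 were higher (Hspa8, Hspa1a, Hspa1b, Hspa4, Hsp90ab1, Dnaja1, Dnajb1, Stip1 and Ahsa1) and all 15 lay above 0, with a median of 0.65. Hspa1b, a stress-inducible Hsp70 gene, had the largest fold change of the list (1.11, SE 0.21, adjusted p = 0.0147) and kept its call in all 10 such fits. Hspa4 went from 1201 ± 114 to 1717 ± 137 (0.51, SE 0.11, adjusted p = 0.0182), kept in 8 of 10 such fits (highest adjusted p 0.0529, without vehicle replicate 1). Of the 10 fits, Stip1 kept its call in 9, Ahsa1 in 8 and Hspa1a in 7. Hspa8 and Hsp90ab1 each kept theirs in 5, Dnaja1 in 3 and Dnajb1 in 2. Of 7 genes of factors tied to chaperone or growth control none passed: Hsf1, the heat shock factor, was at 942 ± 113 and 909 ± 76.2 (-0.07, SE 0.11, adjusted p = 0.751), Srf at 0.33 (SE 0.17, adjusted p = 0.23) and Hsf2 at -0.40 (SE 0.23, adjusted p = 0.263). Among 13 genes of proliferating cells only Mcm2, which encodes a helicase subunit, was higher (0.998, SE 0.20, adjusted p = 0.0157, lost only without vehicle replicate 1 among the fits that leave out 1 library, adjusted p = 0.0597), with a median of 0.47. That list was split, with 8 genes above 0. Mki67, Top2a, Ccnb1, Cdk1 and Birc5 lay below 0, from -0.43 (Birc5) to -0.09 (Top2a), none past the threshold. Each of these was lowest in SP2509 replicate 6. Mki67 was at 286 there against 1176 to 1605 in the other SP2509 libraries, Top2a at 197 against 771 to 980. Cdk1 was at 60.2 against 273 to 368 and Ccnb1 at 41.5 against 203 to 348. In edgeR Top2a (0.018) and Ccnb1 (0.059) lay above 0, so these signs depend on the library and the method.

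Several CCT genes begin close to a gene on the other strand, which gives a local comparison; these neighbours were found after the values of the subunits were seen. Within 1000 bases of the GENCODE start lay Mrpl18 for Tcp1, Tsacc for Cct3, Fam173b for Cct5, Psph for Cct6a, Pradc1 for Cct7 and B130034C11Rik for Cct8. Of the 6, Mrpl18, a mitochondrial ribosomal protein gene, was higher, at 471 ± 97.0 and 736 ± 167 (0.57, SE 0.17, adjusted p = 0.0495). It kept its call in 2 of 10 fits that leave out 1 library (highest adjusted p 0.151, without vehicle replicate 1), and its annotation overlaps that of Tcp1 by 645 bases, as that of Psph overlaps Cct6a by 452 and that of Pradc1 overlaps Cct7 by 457. Pradc1 was at 132 ± 9.86 and 165 ± 15.6 (0.34, SE 0.13, adjusted p = 0.116), and the median of the 6 was 0.18. The strand setting of the counting is not given in the sources used here, so reads in such overlaps cannot be assigned. Of the overlapping protein-coding genes Acat3, which overlaps Tcp1 by 1255 bases, had 2 to 17 reads per library, and Usp16, which overlaps Cct8 by 192 bases, was at -0.10 (SE 0.13, adjusted p = 0.659). The Tcp1 pseudogene Tcp1-ps1 had 26 reads over all libraries.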

How the data were processed

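Tongue RNA of 10 libraries was poly-A selected and sequenced, per the labels' protocols. HISAT2, featureCounts and mm10 are listed in the submitters' processing notes, and no source used here gives the annotation, strand setting or scaling tool. In unit the deposited signal is not raw: its values are the authors' read counts per gene divided by 1 factor per library, which was read from the values: divided by the library's smallest value, 100% came within 0.01 of a whole number, and these whole reads summed to 9180844 to 14768955 per vehicle library and 15748571 to 19375555 per SP2509 library. Symbols matched 27113 of 27151 IDs. Positions and lengths come from GENCODE M21 (GRCm38, the build of mm10), promoters from RefSeq (GRCm38.p6).

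The reported test was limma (3.58.1, R 4.3.3; trend, robust, two-sided) on log2(value + 1), 10 libraries, no covariate, 17088 genes at 10 or more in at least 4 libraries; this scale understates changes of low genes. On the recovered reads edgeR (4.0.16) called 912 higher and 585 lower genes. DESeq2 (1.42.0), other pseudocounts, filters, scalings, merged or omitted libraries and a replicate block were alternatives. Scripts were tested on simulated data. The members, lists and the pairs averaged were chosen with earlier results of these data known. Named genes are the subunits, the members of each list with the smallest p, the 6 genes most like the subunits (mean of at least 100) and Kdm1a; others were chosen after their values were seen. Since the labels do not tie libraries to mice, p-values reflect spread among libraries only, possibly technical spread. Tables and figures used Python 3.11.15, pandas 2.3.3, NumPy 2.4.6 and matplotlib 3.10.9. The result of 1 marker gene is not reported here.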

Additional observations from a re-analysis of the deposited data

Results flagged for a closer look

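Among 112 groups of 4 values (vehicle libraries or SP2509 units) of the genes and sums followed, 8 held a value far from the other 3 relative to the group's range; chance alone marks about 1 in 20 groups. Among the subunits it was Tcp1 in vehicle replicate 3, at 829 normalised reads against 922 to 935 in the other vehicle libraries. In SP2509 replicate 6, Rpap3 stood at 218, Hsf2 at 678 and Dnajb1, an Hsp40 gene, at 401. The averaged replicates 4 and 5 had Pdcl3 at 639, and the averaged replicates 1 and 2 had Hspa8, the constitutive Hsp70 gene, at 14968. In vehicle, Tbcc was low in replicate 1 (152) and Tuba4a high in replicate 2 (3911).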

How the results depend on the processing

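The fold change of each subunit was positive in all 22 alternatives: 0.57 to 0.79 for Tcp1, 0.41 to 0.68 for Cct2, 0.38 to 0.59 for Cct3, 0.42 to 0.65 for Cct4, 0.47 to 0.69 for Cct5, 0.18 to 0.42 for Cct6a, 0.25 to 0.46 for Cct7 and 0.14 to 0.33 for Cct8. What changed was which passed the threshold, and the cause of that was not tested. Counts are given as subunits, then genes of the 12 lists higher and lower, then all genes higher and lower, with reported values of 6, then 19 and 1, then 846 and 709. Leaving out 1 library gave 2 to 8, then 2 to 35 and 0 to 3, then 171 to 1971 and 107 to 1488; each lowest count occurred without vehicle replicate 1 (for lower list genes, also without 8 other libraries) and each highest without SP2509 replicate 6. Without SP2509 replicates 4 and 5, an alternative chosen after the data were seen, 4 subunits, then 2 and 0, then 219 and 156 were called. Equal totals outside mitochondrial genes gave 2, then 8 and 3, then 297 and 1442, with a subunit median of 0.40. DESeq2 gave 7, then 31 and 4, then 1618 and 1388. With the close pairs averaged in limma or summed in edgeR (the latter chosen after the data were seen) all 5 counts were 0, with subunit medians of 0.55 and 0.58; at an unadjusted p under 0.05, limma then had 1980 genes higher and 1652 lower, and edgeR 2427 and 1448. No filter gave 553 higher genes and 0 lower list genes, as did TMM scaling and edgeR for the latter (0 and 0); a filter at 50 gave 2 lower list genes. The change in the summed share of Tcp1, Cct2, Cct4 and Cct5, grouped after their values were seen, ranged from 3.34 to 4.29 percentage points when 1 library was left out.

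With the replicate number as a block in limma (numbers 1 to 4, 8 libraries), 5 subunits had an adjusted p under 0.05, with a median of 0.58. In that fit 24 list genes were higher and 2 lower, and 1158 of all 17088 tested genes were higher and 813 lower. The members were taken from this contrast, so nothing is read from their count. Same-numbered libraries deviated together with r of 0.13, 0.03, -0.20 and 0.13 over genes, and in 3 of 4 cases a library of another number correlated better, so the numbers were not taken as a pairing. Genes near 0 changed sign: Bbs12 was at -0.15 with equal totals outside mitochondrial genes, -0.00094 in edgeR, -0.044 in DESeq2, -0.013 with pairs averaged, -0.0069 with pairs summed and -0.23 to 0.19 with 1 library left out. Kdm1a was at -0.14 with equal totals and -0.039 to 0.068 with 1 library left out.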
